A study of Mus musculus with 3 samples.

Results

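The genes described here are 5 matrix metalloproteinases (MMPs), Mmp2, Mmp9, Mmp11, Mmp13 and Mmp14, and 3 tissue inhibitors of metalloproteinases (TIMPs), Timp1, Timp2 and Timp3. They were chosen by gene symbol, from every probe set that the platform's annotation pairs with that symbol, which gave 13 probe sets for 8 of the 8251 genes on the array. Expression was measured in medial edge epithelium, the cell layer at the tips of the palatal shelves, from CF-1 mouse embryos of embryonic day 13.5. Unfused epithelium (0 h) was not cultured, fused epithelium had spent 12 h in culture since opposed shelves were first brought together, and fused epithelium labelled as turning into mesenchyme had spent 24 h. In all 3 samples the layer was freed with the enzyme Dispase II. Each time point had 1 array, so the values below carry neither replicate errors nor tests. Fusion, hours in culture and array cannot be told apart. The sources used here do not give the number of embryos behind each sample.

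MMPs are zinc-dependent enzymes that cut collagens, laminins and other matrix proteins, and most are secreted or displayed as inactive precursors that must be cleaved to work. TIMPs bind the active site of MMPs and stop them, so that the matrix around a cell depends on both. During palate fusion the basement membrane under the midline seam is broken down, and work on cultured mouse palates has placed metalloproteinase activity in this seam downstream of the growth factor Tgfb3.

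Values are scaled signals: each array was multiplied to a common trimmed mean, and signals under a floor of 13.5, the 40th percentile of all scaled signals, were treated as not distinguishable from each other. A signal below the floor on 1 array gives a ratio that is only a bound, written "at least". The share of genes above the floor ranged between 65.5% and 71.2% over the arrays. The 3' to 5' signal ratio of the control transcript Gapdh was 0.828, 14.9 and 12.6 at 0, 12 and 24 h, and that of Actb 1.02, 11.9 and 2.97. The part of this difference in the ratios below was not tested. Probe sets of the same gene varied around their gene's mean log2 ratio. The SD was 1.24 between 12 and 0 h, 0.82 between 24 and 12 h, and 1.07 between 24 and 0 h. This is the only gauge of error here, and it covers only disagreement between probe sets on the same arrays. The spread that repeat samples or arrays would show does not enter it. In bulk RNA of this kind, fewer cells of a type and less RNA per cell cannot be told apart.

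All 8 genes lay above the floor on at least 1 array, and Mmp11, Mmp14, Timp1, Timp2 and Timp3 on all 3. Of all 8251 genes, 4682 lay above it on all 3 arrays, and 6379 on at least 1 of the 0 and 12 h arrays. Each of the 8 genes was read by a single informative probe set. The other 5 of the 13 probe sets, belonging to Mmp2, Mmp9, Timp1 and Timp2, lay below the floor on every array. In the alternative that takes the mean over probe sets, these 5 enter at the floor on every array. They add no difference and only shrink the ratio of their gene, so that mean is not an independent check. The 8 genes were chosen with earlier results of these data known, so their detection and the counts below may partly follow from that choice. Of the other MMPs on the array, Mmp7, Mmp8, Mmp10, Mmp17 and Mmp24 were below the floor on every array. Mmp3, Mmp12 and Mmp16 were above it on some. At 12 h, Mmp13 and Timp3 were at least 2-fold higher than at 0 h and Mmp11, Mmp14 and Timp2 at least 2-fold lower. These are 2 and 3 of 8 genes, against shares over all 6379 genes with a ratio of 17.7% for higher and 27.3% for lower by the same rule. Between 12 h and 24 h, Mmp9 and Mmp14 were at least 2-fold higher at 24 h, 2 of 8 against 18.8% of 6141 genes, and 0 of 8 were at least 2-fold lower, against 12.0%. In the comparison of 24 h with 0 h, Mmp2, Mmp9, Mmp13, Timp1 and Timp3 were at least 2-fold higher, 5 of 8 against 14.5% of 6392 genes, and 0 of 8 were at least 2-fold lower, against 17.7%. In the order of these 3 comparisons, the median log2 ratio of the 8 genes was 0.42, 0.78 and 1.15, where the medians over all genes were -0.21, 0.17 and -0.08. Bounds entered these medians at their floored value. With signals left as deposited, the medians of the 8 genes were -0.10, 0.47 and 0.15 and those of all genes -0.83, -0.12 and -0.98.

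**Figure D1:**
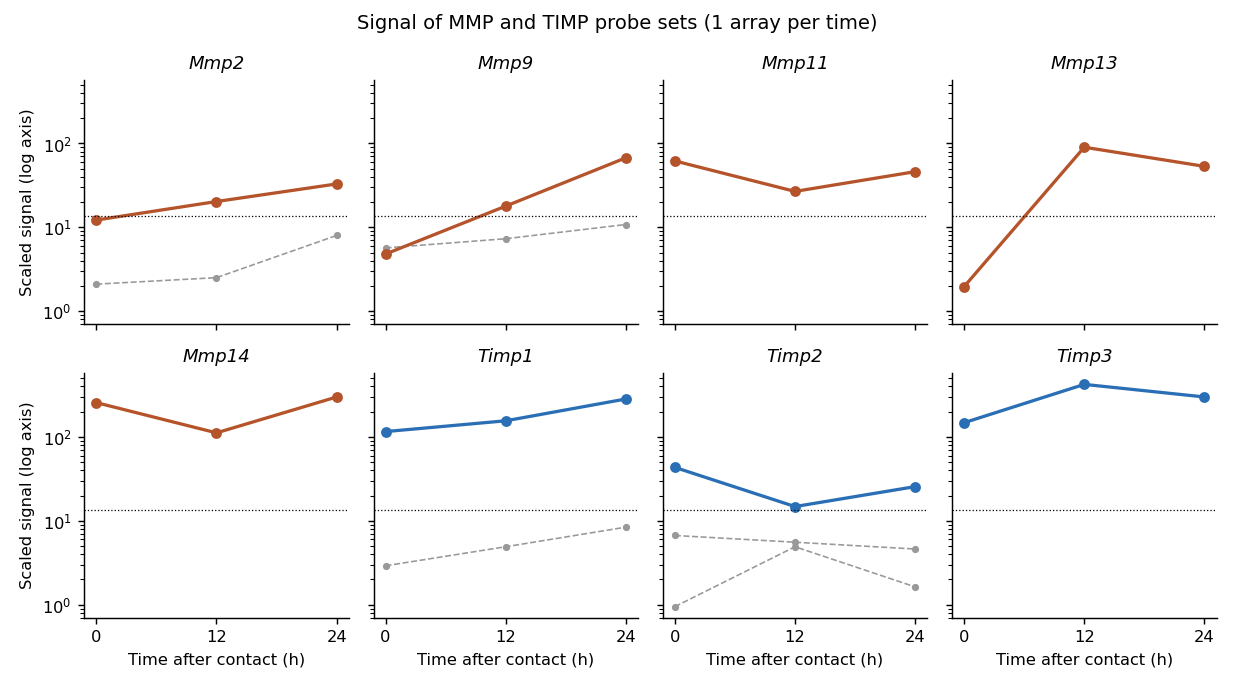
Scaled signal (log axis) of each MMP (brown) and TIMP (blue) at 0, 12 and 24 h after contact, 1 array per time. Coloured lines show the brightest probe set of a gene, grey dashed lines its other probe sets and the dotted line the floor of 13.5. Mmp13 is below the floor at 0 h and reads 90.2 at 12 h and 53.3 at 24 h, while every grey line stays below the floor.

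Mmp13 is a collagenase that cleaves fibrillar collagens, and in development it is best known from hypertrophic cartilage and bone. Its signal was 1.96, 90.2 and 53.3 at 0, 12 and 24 h. It was below the floor in unfused epithelium and well above it on both arrays of fused epithelium. Its 12 h signal was at least 6.67-fold above the 0 h level (log2 ratio 2.74), a bound at the 97.5th percentile of all gene ratios, and its 24 h signal at least 3.94-fold. For 24 h over 12 h the log2 ratio was -0.76, less in size than the probe set SD of 0.82. It was -1.07 with signals as deposited, -1.04 with arrays centred on their medians and -0.89 by quantile normalization, and -1.07 and -1.04 are past 2-fold. That SD was computed under trimmed-mean scaling only, and each scaling also shifts the ratios of all genes. Less the median of all genes, the Mmp13 value was -0.93 under trimmed-mean scaling. In the order above it was -0.96, -0.95 and -0.90 under the others. The ratio of 12 h over 0 h was at least 2-fold under all 9 alternative scalings, floors and probe set rules, ranging between log2 values of 1.36 and 4.94. For 24 h over 0 h the bounds of Mmp13 and Mmp9 were under 2-fold with the floor at the 60th percentile, at log2 values of 0.60 and 0.94.

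The promoter of Mmp13 is shown because this gene, below the floor in unfused epithelium, gave the largest ratio or bound of the 8 at 12 h. The window, chr9:7272264-7272563 on the plus strand of GRCm38.p6 (RefSeq), covers 250 bases before and 50 after the annotated transcription start. Capitals mark matches on either strand to AACCACA (bound by Runx factors), AGGAAG (Ets factors), TGAGTCA (AP-1, read here as its reverse complement) and TATAAA (the TATA box). The motif GGGCGG (the GC box, bound by Sp1) was searched as well and had no match in this window. No match shares a base with another in the 4 windows printed.
Mmp13: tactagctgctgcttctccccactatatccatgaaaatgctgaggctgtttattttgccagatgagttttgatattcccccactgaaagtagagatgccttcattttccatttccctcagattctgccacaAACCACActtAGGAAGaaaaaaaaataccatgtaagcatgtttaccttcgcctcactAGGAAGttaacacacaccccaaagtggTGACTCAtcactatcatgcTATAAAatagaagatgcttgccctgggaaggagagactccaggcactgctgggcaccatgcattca

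The AP-1 match begins 35 bases before the start, the TATA box 16, the Ets matches 62 and 109, and the Runx match 119. Over 32851 promoter windows of the same length, 5.20% held the AP-1 motif, 5.27% the Runx motif, 13.6% the TATA box, 35.4% the Ets motif and 35.7% the GC box. Mmp13 was the only one of the 6 members in the promoter table (Mmp11, Mmp13, Mmp14, Timp1, Timp2 and Timp3) whose window matched the AP-1, Runx or TATA letters. Such matches describe letters and are not evidence of binding.

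Mmp9 and Mmp2 are the gelatinases, which digest denatured collagen and the type IV collagen of basement membranes. Mmp9 had signals of 4.80, 17.9 and 67.5 at 0, 12 and 24 h. It passed the floor narrowly at 12 h and clearly at 24 h. The 24 h signal of Mmp9 was 3.77-fold above that of 12 h (log2 ratio 1.92, at the 95.8th percentile of all genes) and at least 4.99-fold above that of 0 h. Against 12 h this was the highest ratio among the 8 genes, all of which were measured on both of these arrays. With the mean over both probe sets its log2 ratio was 0.96, under 2-fold, and with the floor at the 60th percentile it was a bound of at least 0.94. The other probe set of Mmp9, whose suffix marks possible cross-hybridization, stayed below the floor at 5.68, 7.31 and 10.8.

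Mmp2 had signals of 12.2, 20.3 and 32.9 at 0, 12 and 24 h. Its 0 h signal was just under the floor and the 12 and 24 h signals were above it. At 24 h Mmp2 was at least 2.44-fold above 0 h and 1.62-fold above 12 h. With signals as deposited the ratio of 24 h over 0 h was a log2 value of 0.43, and with the mean over both probe sets it was also under 2-fold. With a floor of 35.1, the 60th percentile, Mmp2 had no ratio at all.

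Mmp14 and Mmp11 had their lowest signals at 12 h. Mmp14 is anchored in the plasma membrane, cleaves collagen at the cell surface and activates the precursor of Mmp2. Its signals were 257, 112 and 300 at 0, 12 and 24 h. At 12 h Mmp14 was 2.29-fold lower than at 0 h (log2 ratio -1.19), and its 24 h signal was 2.67-fold above that of 12 h (log2 ratio 1.42). For 24 h over 0 h the log2 ratio was 0.23, and it was -0.78 with signals as deposited. With each array centred on its median, the ratio of 12 h over 0 h was under 2-fold (log2 -0.74). The higher signal at 24 h than at 12 h was at least 2-fold under all 9 alternatives.

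Mmp11, or stromelysin-3, is activated inside the cell by furin and is typical of stromal cells during tissue remodelling. It had signals of 61.9, 26.8 and 46.1 at 0, 12 and 24 h. Mmp11 was 2.31-fold lower at 12 h than at 0 h (log2 ratio -1.21), at the 22.4th percentile of all genes, and the log2 ratio of 24 h over 0 h was -0.43. After centring each array on its median and after quantile normalization, the 12 h ratio was under 2-fold. With the floor at the 60th percentile it was a bound that does not reach 2-fold. Mmp11, Mmp14 and Timp2 thus all had their lowest signal at 12 h. Of their 3 ratios of 12 h over 0 h, that of Timp2 exceeded the probe set SD of 1.24 in size and the others did not.

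The 3 inhibitors had different courses. Timp2 inhibits MMPs and also joins Mmp14 at the cell surface in the complex that activates Mmp2. Its signals were 43.4, 14.8 and 25.6 at 0, 12 and 24 h. The 12 h value stood barely above the floor. Its 12 h signal was 2.93-fold lower than at 0 h (log2 ratio -1.55), and it had log2 ratios of 0.79 for 24 h over 12 h and -0.76 for 24 h over 0 h. With the mean over its probe sets the log2 ratio of 12 h over 0 h was -0.52, under 2-fold. With the floor at the 60th percentile the 12 h signal lay below it, so that the log2 ratio of -0.31 is only a bound on how much lower Timp2 was. Its other probe sets had signals between 0.947 and 6.69 on all arrays. Cep295nl, a gene that overlaps Timp2, had signals of 15.3, 8.73 and 2.17 at 0, 12 and 24 h. Timp1 overlaps Syn1 and Timp3 overlaps Syn3 in the RefSeq annotation, and both synapsin genes were not analysed here.

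Promoters of the 3 members that were lower at 12 h are shown for comparison with that of Mmp13, with capitals for the same 5 motifs. All 3 held the GC box, Mmp11 at 4 places, Mmp14 at 2 and Timp2 at 1, and Mmp14 also held an Ets match. The windows are chr10:75932453-75932752 on the minus strand for Mmp11, chr14:54431348-54431647 on the plus strand for Mmp14 and chr11:118355362-118355661 on the minus strand for Timp2, each written in the direction of transcription. GC box letters also occurred in the windows of Timp1 and Timp3.
Mmp11: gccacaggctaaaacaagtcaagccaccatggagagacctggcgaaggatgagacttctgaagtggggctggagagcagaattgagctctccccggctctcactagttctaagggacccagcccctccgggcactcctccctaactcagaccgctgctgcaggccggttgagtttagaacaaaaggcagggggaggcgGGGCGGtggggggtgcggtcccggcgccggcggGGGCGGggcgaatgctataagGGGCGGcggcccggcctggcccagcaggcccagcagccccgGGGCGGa
Mmp14: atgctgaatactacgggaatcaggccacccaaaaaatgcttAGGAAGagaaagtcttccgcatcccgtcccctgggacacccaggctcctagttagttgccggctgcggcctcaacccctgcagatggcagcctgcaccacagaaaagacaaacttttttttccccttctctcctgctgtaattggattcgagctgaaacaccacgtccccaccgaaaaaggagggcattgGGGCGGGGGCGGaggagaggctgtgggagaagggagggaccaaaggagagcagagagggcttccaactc
Timp2: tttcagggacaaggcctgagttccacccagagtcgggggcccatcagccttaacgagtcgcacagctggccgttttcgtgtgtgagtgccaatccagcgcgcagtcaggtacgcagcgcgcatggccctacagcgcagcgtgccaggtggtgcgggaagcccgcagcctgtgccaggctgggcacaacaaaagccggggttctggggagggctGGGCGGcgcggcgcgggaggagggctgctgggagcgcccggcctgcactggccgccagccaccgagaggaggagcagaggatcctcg

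Timp3 is the inhibitor that binds to the extracellular matrix and also blocks several ADAM proteases. It had signals of 148, 424 and 300 at 0, 12 and 24 h. Both cultured arrays were higher than the uncultured one. Against 0 h, Timp3 was 2.87-fold higher at 12 h (log2 ratio 1.52) and 2.03-fold higher at 24 h, and the log2 ratio of 24 h over 12 h was -0.50. With signals as deposited both fell short of 2-fold, with log2 ratios of 0.83 for 12 h over 0 h and 0.02 for 24 h over 0 h.

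Timp1 is a secreted inhibitor that many cells make in response to cytokines, and it also binds the precursor of Mmp9. It had signals of 116, 156 and 284 at 0, 12 and 24 h. At 24 h Timp1 was 2.46-fold above 0 h (log2 ratio 1.30, at the 90.4th percentile) and 1.81-fold above 12 h. The ratio of 24 h over 0 h was under 2-fold with signals as deposited (log2 0.29) and with the mean over both probe sets. Its log2 ratio of 12 h over 0 h was 0.44, and -0.25 with signals as deposited. The other probe set of Timp1 was below the floor throughout, with signals of 2.91, 4.91 and 8.41.

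**Figure D2:**
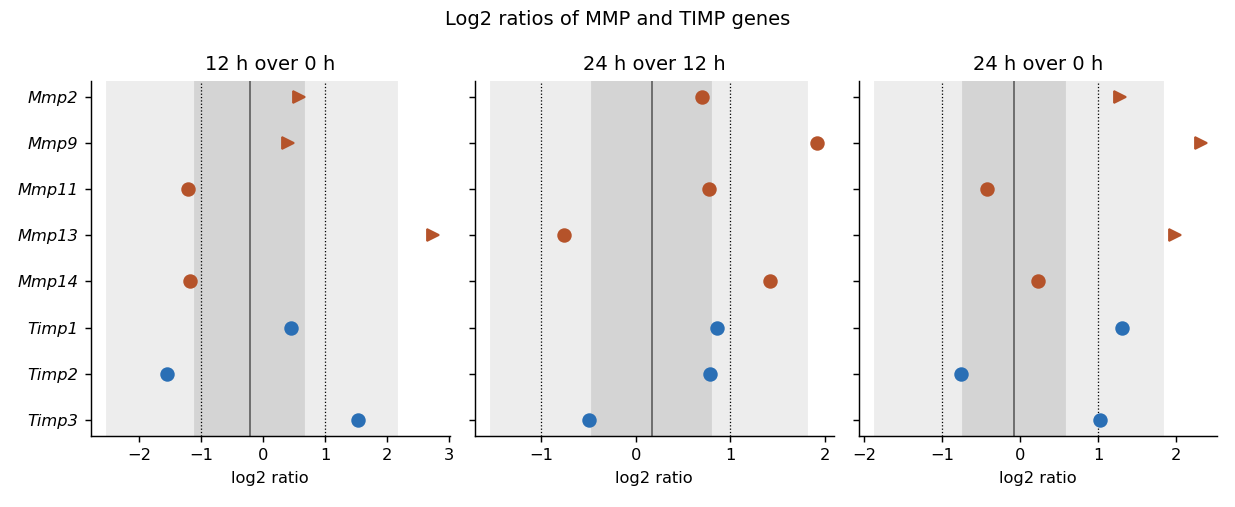
Log2 ratio of each MMP (brown) and TIMP (blue) in the 3 comparisons. Circles are measured on both arrays and triangles are lower bounds, dark and light grey bands span the quartiles and the 5th to 95th percentile of all genes, the grey line is their median and dotted lines mark 2-fold. Mmp13 lies to the right of the light band in both comparisons with 0 h and Mmp9 in both comparisons of 24 h, and no member lies to the left of it. With signals as deposited, the ratio of Timp1 for 12 h over 0 h and that of Mmp14 for 24 h over 0 h change sign.

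Ratios of a protease relative to an inhibitor do not depend on how an array is scaled, except through the floor and under quantile normalization. Relative to Timp1, Mmp13 was at 12 h at least 4.93-fold above its 0 h value, and at 24 h 3.07-fold below its 12 h value. Mmp9 relative to Timp1 was 2.08-fold higher at 24 h than at 12 h (log2 difference 1.06). This was 0.53 with the mean over probe sets, 0.89 by quantile normalization and a bound of 0.08 with the floor at the 60th percentile. Relative to Timp2, Mmp2 was at 12 h at least 4.39-fold and at 24 h at least 4.13-fold above its 0 h value. With the mean over probe sets these log2 differences were 0.81 and 0.90, under 2-fold. Mmp14 and Timp2, which act in the same complex, had a log2 difference of 0.36 at 12 h over 0 h and of 0.99 at 24 h over 0 h. The value at 12 h changed sign, to -0.06 by quantile normalization and -0.68 with the mean over probe sets. With the floor at the 60th percentile it was a lower bound of -0.89. The value of -0.68 arises because Timp2 sets below the floor shrink the ratio of Timp2, while Mmp14 has 1 set. The median of the 5 MMPs relative to the median of the 3 TIMPs had log2 differences of -0.03 at 12 h over 0 h, -0.01 at 24 h over 12 h, and 0.26 at 24 h over 0 h. For both comparisons with 0 h the MMP median is itself a bound. With the floor at the 60th percentile the differences were -1.26 at 12 h and -0.61 at 24 h, but over fewer MMPs. At that floor Mmp2 had no ratio in either comparison and Mmp9 none at 12 h. The MMP median at 12 h was then that of Mmp11, -0.82, which is an upper bound.

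Mmp13 lies in the MMP gene cluster on chromosome 9, where 8 of its 10 nearest protein-coding genes are other MMPs. Of those on the array, Mmp3, a stromelysin that can activate other MMPs, had signals of 12.6, 42.1 and 14.4 at 0, 12 and 24 h. Mmp12, the macrophage elastase, had 6.76, 33.6 and 46.6. Both were thus below the floor at 0 h and above it at 12 h, as Mmp13 was. Mmp3, however, lay just under the floor of 13.5 at 0 h and just above it at 24 h. Mmp8 and Mmp10 were below the floor on all 3 arrays. The 12 h signal of Mmp3 was at least 3.11-fold above 0 h, and its 24 h signal 2.93-fold below 12 h. For Mmp12 the 24 h signal was at least 3.45-fold above 0 h.

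Of 19 other MMP and ADAM family proteases on the array, 10 had a ratio of 12 h over 0 h. By the 2-fold rule 4 of these were higher and 3 lower, against 17.7% and 27.3% of all genes, and their median log2 ratio was -0.21. Adam10, which sheds cell surface proteins, had 340 at 12 h against 76.3 at 0 h (4.46-fold higher), and at 24 h it was 3.86-fold lower than at 12 h. Its other probe set went the opposite way at 12 h, with 4.58 at 12 h against 48.5 at 0 h. Bmp1, which trims procollagen, was 3.24-fold lower at 12 h and 2.46-fold lower at 24 h than at 0 h. Adam9 was 3.20-fold higher at 12 h and 2.17-fold higher at 24 h than at 0 h. For 24 h over 0 h, 2 of 10 were higher and 2 lower by the rule, against 14.5% and 17.7% of all genes.

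Of 10 measured genes that activate, anchor or clear MMPs, 3 were higher and 3 lower by the 2-fold rule at 12 h relative to 0 h, where 17.7% and 27.3% of all genes were. Furin, the convertase that activates Mmp11 and Mmp14, had signals of 117, 259 and 312 at 0, 12 and 24 h, and was 2.67-fold higher at 24 h than at 0 h. Reck, a membrane-bound MMP inhibitor, had 98.9, 247 and 235, and was 2.50-fold higher at 12 h than at 0 h. Bsg, a surface glycoprotein that induces MMPs in neighbouring cells, had 400, 42.6 and 320. Lrp1, the receptor that takes up MMPs and TIMPs, had 224, 25.6 and 100. Bsg and Lrp1 thus had their lowest signals at 12 h, with 9.37-fold and 8.74-fold lower signals than at 0 h.

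Among 13 measured transcription factors known to act on MMP promoters, 0 were higher and 6 lower by the 2-fold rule for 12 h over 0 h (median log2 ratio -0.82), where 17.7% of all genes were higher and 27.3% lower. For 24 h over 12 h, 6 were higher and 1 lower, beside 18.8% and 12.0% of all genes. Fos, which with Jun proteins forms the factor AP-1, had signals of 1969, 3119 and 1290 at 0, 12 and 24 h. Jun had 389, 127 and 106, Junb 243, 23.5 and 52.6, and Fosb 720, 107 and 99.9. At 12 h Junb was thus 10.4-fold, Fosb 6.73-fold and Jun 3.06-fold lower than at 0 h, and the other probe set of Junb had 1.64 at 12 h against 264 at 0 h. Rela, a subunit of NF-kappaB, had signals of 232, 37.2 and 175 at 0, 12 and 24 h. Elf3, an epithelial Ets factor, was at 24 h 4.11-fold above its 0 h signal. Stat3 was 2.98-fold above its 12 h signal at 24 h. Of 6 measured cytokines and growth factors, 4 were at least 2-fold higher and 0 lower at 24 h than at 0 h, where 14.5% and 17.7% of all genes were. These were Pdgfb (2.78-fold), Tgfb2 (2.68-fold), Tgfb3 (2.67-fold) and Pdgfa (2.05-fold). The median log2 ratio of the list was 1.23, and 0.22 with signals as deposited. The other 9 on the array, among them the MMP inducers Il1a, Il1b, Il6 and Tnf, were below the floor at every time.

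The plasminogen system can activate MMP precursors. On a list of plasminogen activators and serpins, which is wider than that system, 9 genes had a ratio. By the rule 2 were higher and 2 lower for 12 h over 0 h (all genes 17.7% and 27.3%). For 24 h over 12 h, 3 were higher and 0 lower (all genes 18.8% and 12.0%). Plat, the tissue plasminogen activator, was 2.70-fold lower at 12 h than at 0 h, and the plasmin inhibitor Serpinf2 4.24-fold lower. Serping1, the C1 inhibitor, was 2.71-fold higher at 24 h than at 12 h. Plau, the urokinase, had signals of 23.9, 18.1 and 24.5 at 0, 12 and 24 h.

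Among 23 measured matrix substrates, 7 were higher and 7 lower by the rule for 12 h over 0 h (all genes 17.7% and 27.3%), and 9 higher and 1 lower for 24 h over 12 h (all genes 18.8% and 12.0%). Of the basement membrane genes, Lama5 was at least 7.48-fold, Lama4 5.05-fold and Hspg2 4.70-fold lower at 12 h than at 0 h. Other basement membrane genes were higher at 12 h by the rule, Lamb1 with a log2 ratio of 1.51 (1.22 by its other probe set) and Nid2 with 1.21. Of the interstitial matrix genes, Col1a2 was 11.1-fold, Sparc 6.11-fold, Bgn 5.36-fold and Dcn 4.59-fold higher at 24 h than at 0 h. Another probe set of Col1a2 had a log2 ratio of -0.34 for 24 h over 0 h, and another of Bgn 0.97.

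Markers were read on the same arrays. The labelled tissue is epithelium, and 11, 7 and 11 of 14 epithelial markers lay above the floor at 0, 12 and 24 h, with summed signals of 934, 1565 and 1591. The basal keratins Krt5, Krt14 and Krt15 were below the floor on all 3 arrays. Cdh1, Epcam, Krt8, Krt18, Krt19, Trp63 and Dsp were above it on all 3, and Jup, Cldn4, Cldn7 and Elf3 at 0 and 24 h only. Palate mesenchyme markers were present at every time, 15, 11 and 12 of 15 at 0, 12 and 24 h, with summed signals of 4564, 9104 and 10127. Bright genes weigh most in such sums. By the 2-fold rule 6 of the 15 were higher and 5 lower for 12 h over 0 h (all genes 17.7% and 27.3%), with a median log2 ratio of -0.24. For 24 h over 0 h, 5 were higher and 3 lower (all genes 14.5% and 17.7%), with a median of 0.19. Mmp2, Mmp11 and Mmp14 are widely known as products of stromal cells, and the part of mesenchymal cells in their signals was not tested.

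Bone and cartilage markers, beside which Mmp13 is usually found, had 1, 1 and 3 of 7 above the floor, with summed signals of 104, 718 and 390. Nearly all of that sum at 12 h came from Ibsp, a bone sialoprotein, with 9.60, 681 and 264 at 0, 12 and 24 h. Its other probe set had 26.6, 0.654 and 27.5. The cartilage markers Col2a1, Col10a1 and Matn1 and the osteocyte gene Dmp1 were below the floor throughout. Acan, also a cartilage marker, had 11.9, 5.13 and 22.6 at 0, 12 and 24 h, above the floor only at 24 h. The bone marker Alpl had 53.9, 4.47 and 83.9, below the floor only at 12 h. Macrophage and leukocyte markers had 5, 7 and 7 of 14 above the floor, with summed signals of 284, 350 and 670. Cd68, Csf1r, Cd14, Tyrobp and Laptm5 were above the floor on all 3 arrays. Cd14 had signals of 74.2, 73.1 and 209 and Laptm5 of 63.0, 130 and 280. Ptprc, Adgre1, Itgam, Itgb2, Lyz2, Fcer1g and Cybb were below the floor on all arrays. Osteoclast markers, of a cell type rich in Mmp9, had 1, 2 and 3 of 5 above the floor and summed signals of 56.9, 100 and 195. Ctsk was above the floor on all 3 arrays, with 29.2, 62.7 and 156, while Calcr and Itgb3 stayed below the floor throughout. Endothelial markers had 7, 8 and 8 of 9 above it, with summed signals of 411, 658 and 666. Their median log2 ratio was 0.16 for 12 h over 0 h and 0.62 for 24 h over 0 h. The part of these cell types in the MMP and TIMP signals was not tested.

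**Figure D3:**
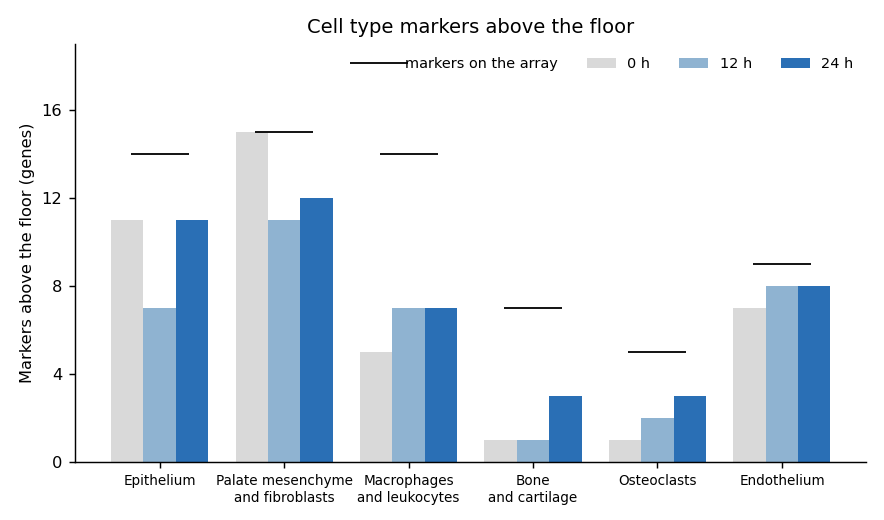
Number of markers above the floor (vertical axis, genes) for 6 cell types at 0, 12 and 24 h, 1 array per time. Black dashes mark how many markers of each list were on the array. All 15 mesenchyme markers are above the floor at 0 h, as are 11 of 14 epithelial ones and 71.2% of all genes.

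Genes with the most similar course were sought for the 5 members above the floor on all arrays, among 4682 genes, by the root mean square difference of their log2 ratios to 0 h over 3 arrays. Nearest to Mmp14 were Foxd2 and Klc4 (differences of 0.007 and 0.010), to Mmp11 Dgcr2 and Dus1l (0.014 and 0.032) and to Timp2 Ift27 and Usp5 (0.017 and 0.025). For Timp3 they were Top1 and Pag1 (0.019 and 0.023), and for Timp1 Stk11 and Sprr2b (0.038 and 0.039). Each of these 5 members had between 77 and 215 genes within a difference of 0.25.

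**Figure D4:**
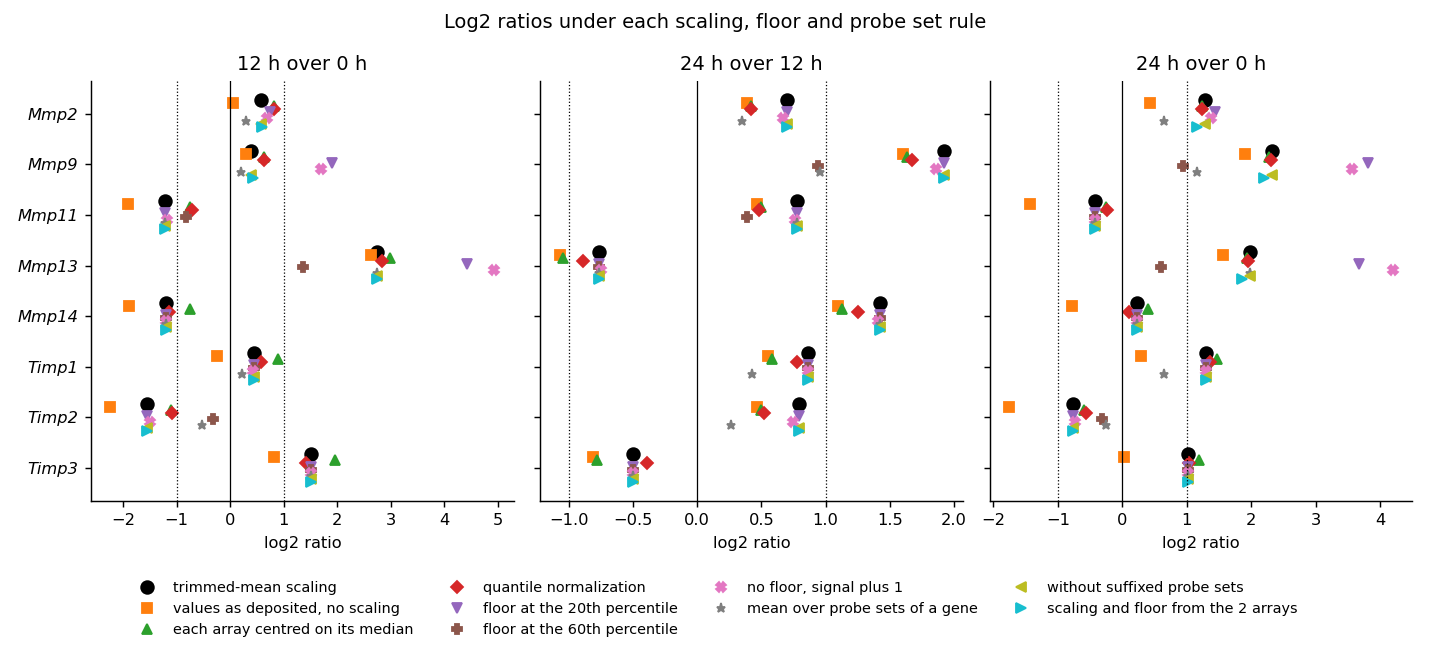
Log2 ratio of each gene (rows) in the 3 comparisons (panels) under trimmed-mean scaling (black circles) and 9 alternatives (coloured marks). Solid lines mark no difference and dotted lines 2-fold. Signals as deposited move every ratio to the left, and only the ratio of Timp1 for 12 h over 0 h and that of Mmp14 for 24 h over 0 h cross the solid line under them.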

How the data were processed

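RNA of 3 samples, 1 per time point, was amplified (RiboAmp), labelled (ENZO kit) and hybridized to 1-colour Affymetrix arrays, per the labels' protocols. The deposited intensities are 1 linear signal per probe set without detection calls. The labels name Microarray Suite 5.0 and GeneSpring 6.0; the sources used here do not give whether the authors scaled the arrays. Of 12422 non-control probe sets, 10833 name 1 gene, updated through gene identifiers of a RefSeq table (GRCm38.p6; 10817 matched). The table's promoter sequences cover 6 of the 8 members.

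Arrays were scaled to the geometric mean of their 2% trimmed means by factors of 0.676, 1.09 and 1.36 (0, 12 and 24 h), floored at the pooled 40th percentile and taken to log2, with Python 3.11.15, numpy 2.4.6, pandas 2.3.3 and scipy 1.17.1. A gene is its probe set of highest mean signal. Genes were counted from 2-fold on, without a test, since each time point had 1 array, whose number limits the precision. The procedure returned ratios planted in noise-free copies of the 0 h array, up to a shift from scaling. This checks only the arithmetic for genes above the floor on both arrays. Alternatives covered scaling, floor, probe sets, the size rule and the arrays used. The members and lists were chosen with earlier results of these data known. Named besides the members were, per list and comparison, genes among the 4 largest ratios from 2-fold on, the 2 genes of nearest course, chromosomal neighbours and markers. List genes named for their levels (Furin, Reck, Plau, other probe sets) and the 5 promoter motifs were chosen after values were seen, as were Lamb1 and Nid2.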

Additional observations from a re-analysis of the deposited data

How the results depend on the processing

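The number of arrays, 1 per time point, is the main limit, and no paired analysis was possible because no time point has a second array. Counts of the 8 genes at least 2-fold higher and lower were 2 and 3 for 12 h over 0 h, 2 and 0 for 24 h over 12 h, and 5 and 0 for 24 h over 0 h. The share of all genes by the same rule and setting follows each count in parentheses. With signals as deposited the count of higher genes was 1 at 12 h over 0 h (9.06%) and 2 at 24 h over 0 h (4.50%), and the count of lower genes was 1, Mmp13, at 24 h over 12 h (18.5%) and 2 at 24 h over 0 h (49.3%). With each array centred on its median, 1 gene was lower at 12 h over 0 h (18.4%) and 1, again Mmp13, at 24 h over 12 h (17.8%). With the floor at the 60th percentile, 1 gene was lower at 12 h over 0 h (23.9%), 1 higher at 24 h over 12 h (14.9%) and 2 higher at 24 h over 0 h (13.2%), with more of the ratios being bounds. With the mean over probe sets, which averages in sets below the floor, 1 gene was higher at 24 h over 12 h (15.5%) and 3 at 24 h over 0 h (11.2%). Under a 3-fold rule 1 was higher (9.56%) and 0 lower (15.2%) at 12 h over 0 h, 1 higher at 24 h over 12 h (7.41%) and 2 higher at 24 h over 0 h (6.63%). Mmp9 relative to Timp1 for 24 h over 0 h turned to a log2 difference of -0.35 with the floor at the 60th percentile. This is a lower bound, since the 0 h signal of Mmp9 is then raised to a floor of 35.1. Among alternative values for the ratios of single members, 189 kept their side of the 2-fold line, 16 fell short of it or had a bound short of it, and 6 passed it. The share of upward ratios among all genes at least 2-fold different was 39.3% for 12 h over 0 h, compared with 16.8% on deposited signals, 58.7% with arrays centred on their medians and 51.1% by quantile normalization. For 24 h over 12 h it was 61.1%, 39.4%, 42.1% and 50.9%, and for 24 h over 0 h 45.0%, 8.36%, 55.5% and 51.1%.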
